A study of Rattus norvegicus with 24 samples.

Results

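The shell of the nucleus accumbens (NAc shell) was compared between male F1 rats of reciprocal crosses, using the 8 of 24 RNA-seq libraries whose labels name that region. Subgroup A holds rats 1, 2, 11 and 15, which had a Fischer-344 (F344) father and a Brown Norway (BN) mother, and subgroup B holds rats 3, 4, 13 and 16, born to F344 mothers by BN fathers. Both parental lines are inbred. By the labels each of the 8 rats gave 1 library from the NAc shell, 1 from the NAc core and 1 from the ventral tegmental area (VTA), so the other 16 libraries are labelled as the same animals; 1 of them, VTA A2, goes against its label in its Y-linked genes. According to the labels, rats 1 and 2 of subgroup A and 3 and 4 of subgroup B were injected intraperitoneally with nicotine at 0.4 mg/kg daily for 4 days, and rats 11 and 15 and rats 13 and 16 with saline; the methods of the study do not describe these injections for the self-administration (SA) rats. Intravenous nicotine followed in all 8 rats, 10 infusions of 30 µg/kg on each of 6 days, and tissue was taken on day 15. No library comes from a rat without nicotine, so every value describes the crosses after nicotine. According to the study, subgroup A was the more inclined to self-administer, and passive infusions brought every rat to the same number per session. Cross therefore goes together with the balance of active and passive intake, and their effects on expression were not tested apart. The comparison asks whether rats that inherit the same pair of genomes, with the parents exchanged, differ in gene expression in this region, since the study examined nicotine SA in both crosses.

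The NAc shell is a part of the ventral striatum in which most neurons are GABAergic projection neurons carrying dopamine D1 or D2 receptors, and it receives dopamine from the VTA. It is known for its part in reward and in the reinforcing action of nicotine. F1 males of reciprocal crosses share their autosomal genotype, but they differ in the single X chromosome, which comes from the mother, in the Y chromosome, which comes from the father, in the mitochondrial genome and in which strain supplies the active allele of an imprinted gene. In subgroup A the X chromosome is of BN origin and in subgroup B of F344 origin, and the rat reference genome used for counting (Rnor 6) was built from a BN rat.

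The NAc shell libraries held 19146904 to 21680765 estimated counts each, and totals did not separate the subgroups (two-sided exact permutation test, p = 0.514, where 4 against 4 libraries allow no p below 0.0286). The tissue label was checked against marker genes. The 6 measured markers of striatal projection neurons summed to 1437 to 2474 CPM (counts scaled by the TMM-normalized library total) in the NAc shell and to 138 to 263 CPM in the VTA, and Slc6a3, the dopamine transporter of VTA neurons, lay between 0.139 and 0.824 CPM in the NAc shell. No marker fixed here separates shell from core. Among the libraries used for comparison, a pair labelled VTA stood apart: A2 held 44.8 CPM of dopamine neuron markers against 1059 to 1994 CPM in the other 7 VTA libraries, and choroid plexus markers summed to 16400 CPM in A1 and 2827 CPM in A2 against 13.6 to 19.6 CPM in the other 6. The library labelled VTA A2 also held 0 counts over the 4 Y-linked genes tested, whereas the other 23 libraries held 2018 to 3419 counts each, so A2 lacked the Y-linked transcripts that a male rat should have, and which animal it came from was not tested. Counts for the VTA are therefore also given without A2 and without both, and single-gene values without A2, an alternative chosen after their values were seen. Preparation batch followed the subgroups in the nicotine-injected rats, with A in batch E and B in batch F, so there cross and batch cannot be told apart. The 4 NAc shell libraries of the saline-injected rats, 2 per subgroup, were all prepared in batch G and are the only comparison inside 1 batch. In the VTA the libraries labelled A2 and B16 were both of a further batch, L.

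Few genes separated the crosses. Of 16289 genes tested with edgeR's quasi-likelihood test, 1 had a Benjamini-Hochberg adjusted p under 0.05 (0.00614% of the genes), LOC100362965, which was higher in subgroup A. At an unadjusted p under 0.05, 276 genes (1.69%) were higher and 376 (2.31%) lower in A, with a median absolute log2 fold change of 0.30. For 412 genes (2.53%) the 4 libraries of A did not overlap the 4 of B. Random ordering of 4 against 4 libraries would give a share of 0.0286, so lack of overlap alone does not mark a gene. The calls at an unadjusted p under 0.05 were 4.00% of the genes, no more than that threshold allows by chance. In simulated counts of this comparison over 15818 genes, the test recovered 51.5% of 1.5-fold, 81% of 2-fold and 95.5% of 4-fold changes, so a change of 1.5-fold could be missed. DESeq2 called 5 genes (0.0307%): LOC100362965, AABR07041096.1, RGD1561327, Rps6ka6 and Wnk3. All but the first of these are X-linked. In what follows, a gene called higher or lower in A had an unadjusted p under 0.05 in edgeR's test, and each one other than LOC100362965 missed the adjusted threshold in the NAc shell, with a Benjamini-Hochberg adjusted p of 0.067 or more. Many unadjusted calls were lost within batch G. Of 34 genes followed, the 24 named by rule and 10 more X-linked ones, 16 stayed under 0.05 with preparation batch as a covariate. In the saline-injected rats of batch G alone 12 did, and the log2 fold change of 11 was smaller by over 1.5 times in each of these settings. Batches E and F each hold a single subgroup. With batch as a covariate the cross difference therefore also comes from the 4 libraries of batch G, and the settings are not independent checks. Both take that difference from fewer libraries and from saline-injected rats only, so whether batch, injection or the number of libraries matters was not tested. Of 12 further genes called in the gene lists 2 stayed in each setting.

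LOC100362965 (ENSRNOG00000022595, chromosome 17) carries SNURF as its human counterpart in the study's gene tables. SNURF is encoded with SNRPN in a locus expressed from the paternal allele in mammals. In the NAc shell its estimated counts were 49, 27, 49 and 38 in rats 1, 2, 11 and 15 of subgroup A. All 4 libraries of subgroup B held 0. The mean of subgroup A was 1.97 ± 0.467 CPM (SD, n = 4), at least 13.2-fold above the level that 3 counts per library would give in B (edgeR's quasi-likelihood test, Benjamini-Hochberg adjusted p = 0.0294). The subgroups did not overlap, and counts were seen in both injection groups of A. Over the 3 regions 11 of 12 libraries labelled A and 0 of 12 labelled B held counts. The exception was the library labelled VTA A2, and all 11 A libraries with Y-linked counts held the gene. In the NAc core, where 3 genes (0.0184%) were called, the bound was at least 17.1-fold (edgeR's quasi-likelihood test, Benjamini-Hochberg adjusted p = 0.00299). In the NAc shell each A library held 27 or more counts and each B library 0, but the call depended on which libraries were used. Its Benjamini-Hochberg adjusted p in edgeR's test was 0.0213, 0.0301 and 0.0342 without B replicates 3, 4 and 13, and 0.0328 in the nicotine-injected rats alone. By the same test and adjustment it was 0.0746 without B replicate 16 and 0.0796 to 0.212 without any 1 library of A. It was 0.0701 with the injection as a covariate, 0.184 with preparation batch as a covariate and 0.199 in the saline-injected rats of batch G alone.

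The gene is close in name to Snurf, which is listed on chromosome 1. Snurf held 8428, 8007, 6612 and 7466 counts in subgroup A and 6649, 6524, 7602 and 5855 in subgroup B. Its levels overlapped between the subgroups (log2 fold change of A over B 0.17), and so did those of its partner Snrpn (-0.09). Salmon divides a read among the transcripts that match it, so near-identical copies can exchange counts, and the strain of the allele counted at LOC100362965 was not tested.

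**Figure D1:**
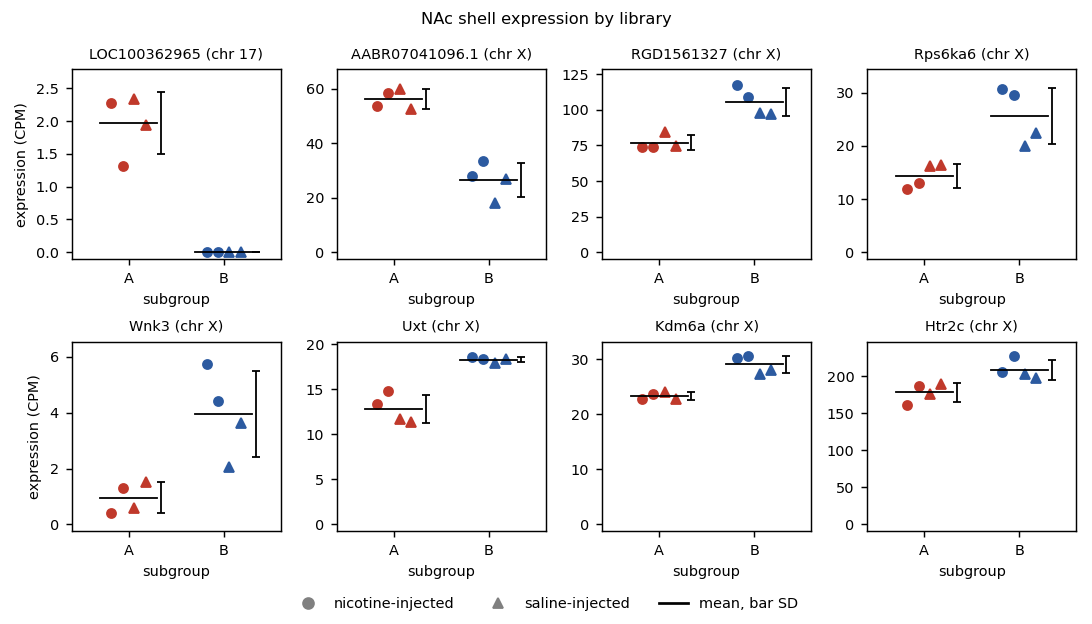
Expression in CPM (linear axis) of 8 genes in the 8 NAc shell libraries, by subgroup; circles are nicotine-injected and triangles saline-injected rats, horizontal lines are means and bars the SD of 4 libraries. LOC100362965 was at 0 in every B library, AABR07041096.1 was higher in A, and the other 6, all X-linked, lay lower in each A library than in any B library.

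X-linked genes made up most of the genes of smallest p that were lower in A. Of the 12 genes of smallest p that were lower in A without overlap, 8 are X-linked. Of the 12 that were higher 1 is X-linked, and 2 have no chromosome in the tables used. The counts by chromosome use the 5950 tested genes that have a name and chromosome through the gene tables of the study's other experiment, which were not chosen on these libraries. Of the 181 X-linked genes among them, 13 were lower in A and 1 was higher. Among the 5769 autosomal genes 107 (1.85%) were lower and 103 (1.79%) higher. The lower share was thus 7.18% on the X chromosome, against 0.529% to 3.97% over the 20 autosomes, while the median log2 fold change was small in every case, -0.03 on the X chromosome and -0.02 to 0.02 on the autosomes. Of all 181 genes, 109 were below 0. The X-linked count depended on the libraries used. With preparation batch as a covariate, where 2.04% of all genes were lower, 6 X-linked genes were lower and 3 higher, which is a lower share of 3.31% against 1.37% of autosomal genes. Within the saline-injected rats of batch G, where 1.37% of all genes were lower, 5 were lower and 3 higher (2.76% against 0.815% of autosomal genes), and 5 were lower when all 24 libraries shared 1 fit (2.76% against 0.676%). Leaving out 1 library at a time gave 9 to 17 lower and 0 to 8 higher, with 14 lower and 8 higher without B replicate 13.

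**Figure D2:**
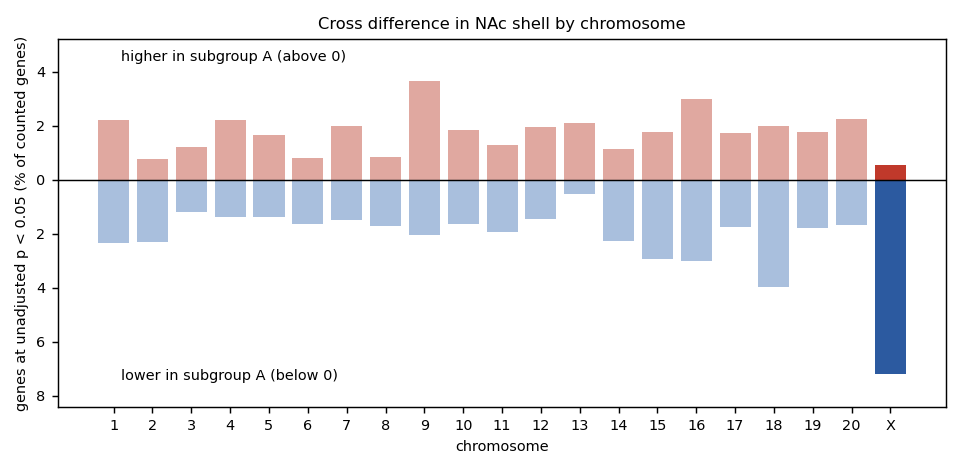
Share of counted genes on each chromosome, in percent of its counted genes, that were higher (bars above 0) or lower (bars below 0) in subgroup A at an unadjusted p under 0.05 in the NAc shell. On the X chromosome 13 of 181 genes were lower and 1 higher, and no autosome had a lower share above 3.97%.

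A pair of kinases stood among the X-linked genes of smallest p. Rps6ka6 (ENSRNOG00000002592) encodes RSK4, a member of the ribosomal S6 kinase family. Its expression was 11.9, 13.0, 16.2 and 16.5 CPM in rats 1, 2, 11 and 15 of subgroup A and 30.7, 29.7, 20.1 and 22.4 CPM in rats 3, 4, 13 and 16 of subgroup B. Every A library lay below every B library, and the nicotine-injected rats were the lowest of A and the highest of B. The log2 fold change of A over B was -0.84 ± 0.16 (SE), with a Benjamini-Hochberg adjusted p of 0.745 in edgeR's test and of 0.00135 in DESeq2. With preparation batch as a covariate it was -0.38, still at the unadjusted threshold. Wnk3 (ENSRNOG00000002537), a WNK kinase that regulates cation-chloride cotransporters, was expressed at 0.418, 1.32, 0.573 and 1.54 CPM in A and at 5.74, 4.43, 2.06 and 3.62 CPM in B. Its libraries did not overlap either, with a log2 fold change of -2.05 ± 0.42 (SE) and Benjamini-Hochberg adjusted p of 0.982 in edgeR's test and of 0.00392 in DESeq2. The autosomal relatives and targets of these kinases did not separate. Of the 9 measured genes of the WNK and RSK list, which holds the families of these 2 genes and was drawn up with earlier results known, no other was below the unadjusted threshold, and Wnk1, Wnk4, Oxsr1, Slc12a2, Slc12a5 and Rps6ka4 had log2 fold changes between -0.13 and -0.02.

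The promoters of these genes are shown because the males of a subgroup carry 1 strain's copy of each of them. They are the RefSeq windows on GRCr8, which was built from a BN rat, and run from 250 bases before to 50 after the start of the gene in the direction of the gene. CG dinucleotides, the sites of CpG methylation, are in capitals. The Rps6ka6 window is chrX:80638861-80639160 on the minus strand with 2 CG, and the first of 2 listed Wnk3 windows is chrX:23599055-23599354 on the plus strand with 12 CG. Over 33469 windows of that length the median was 7 CG, and 13.6% held fewer CG than Rps6ka6 and 62.9% fewer than Wnk3.
Rps6ka6: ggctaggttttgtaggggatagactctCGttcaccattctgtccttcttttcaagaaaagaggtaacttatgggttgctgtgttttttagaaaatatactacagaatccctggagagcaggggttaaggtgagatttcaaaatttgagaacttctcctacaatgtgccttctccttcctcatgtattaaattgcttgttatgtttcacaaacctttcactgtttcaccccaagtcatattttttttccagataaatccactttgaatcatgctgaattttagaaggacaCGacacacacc
Wnk3: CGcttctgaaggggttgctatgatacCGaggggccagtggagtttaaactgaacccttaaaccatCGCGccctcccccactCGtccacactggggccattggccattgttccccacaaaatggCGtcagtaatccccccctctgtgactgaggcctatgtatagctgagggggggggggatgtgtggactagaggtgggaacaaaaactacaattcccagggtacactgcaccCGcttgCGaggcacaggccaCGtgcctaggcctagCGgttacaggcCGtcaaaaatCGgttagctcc

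Kdm6a (ENSRNOG00000052721), the H3K27 demethylase UTX, was expressed at 22.8, 23.7, 24.1 and 22.7 CPM in A and at 30.3, 30.6, 27.4 and 28.0 CPM in B. The subgroups did not overlap, and the spread within each was small (23.3 ± 0.651 CPM and 29.1 ± 1.61 CPM, SD, n = 4 each). The log2 fold change was -0.32 ± 0.08 (SE). Among the 13, Phf8, another histone demethylase, had -0.14 ± 0.06 (SE) with no overlap, and the chromatin remodeller Atrx had -0.17 ± 0.07 (SE) with overlapping libraries. With batch as a covariate Kdm6a had -0.24, Phf8 -0.13 and Atrx -0.11, and these 3 missed the unadjusted threshold.

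Uxt (ENSRNOG00000009893), a prefoldin-like protein that acts as a transcription cofactor, was expressed at 13.3, 14.8, 11.7 and 11.4 CPM in A and within the narrow range of 17.9 to 18.6 CPM in B. No A library reached the B range, and the log2 fold change was -0.51 ± 0.11 (SE). RGD1561327 was expressed at 74.2, 74.1, 84.6 and 74.6 CPM in A and at 118, 109, 97.6 and 97.2 CPM in B, again without overlap (-0.46 ± 0.08, SE; adjusted p of 0.376 in edgeR's test and of 0.000791 in DESeq2, both Benjamini-Hochberg). Srpx, which encodes a sushi-repeat protein, lay between 1.90 and 2.72 CPM in A and between 3.31 and 6.71 CPM in B (-1.03 ± 0.24, SE). With batch as a covariate Srpx had -0.51 and RGD1561327 -0.29, and Srpx no longer passed the unadjusted threshold. LOC108348096 and AC141377.1 complete the 8 lower X-linked genes, of which Rps6ka6, Wnk3, RGD1561327 and Srpx are among the 13 counted by chromosome and the other 4 have names only through tables of these libraries. LOC108348096 ranged from 0 to 5.39 CPM in A and from 6.73 to 68.3 CPM in B, a wide spread within B alone, whereas AC141377.1 lay at 1.23 to 1.43 CPM in A and 2.41 to 3.30 CPM in B.

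Htr2c, the serotonin 2C receptor, which is abundant in the ventral striatum, was also X-linked and lower in A. It was expressed at 162, 186, 175 and 190 CPM in A and at 206, 227, 203 and 197 CPM in B. The A libraries all lay below the B libraries, with rat 15 of A and rat 16 of B close to each other, and the log2 fold change was -0.23 ± 0.07 (SE). The cold-inducible RNA-binding protein Rbm3 (-0.22 ± 0.08, SE), the pseudouridine synthase Dkc1 (-0.15 ± 0.07, SE), the microtubule-associated Map7d2 (-0.16 ± 0.07, SE) and Htatsf1, an elongation and splicing factor (-0.34 ± 0.14, SE), had overlapping libraries. With batch as a covariate Htr2c had -0.13, Map7d2 -0.10 and Htatsf1 -0.07, and they, Rbm3 and Dkc1 missed the unadjusted threshold. Magix, a PDZ domain gene near the detection limit, lay at 0.102 to 0.683 CPM in A and 0.919 to 1.29 CPM in B (-1.18 ± 0.48, SE). AABR07038849.1 (-0.22 ± 0.09, SE) completes the 13.

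X-linked genes that were higher in A were fewer. AABR07041096.1 (ENSRNOG00000054795) was expressed at 53.6, 58.4, 59.9 and 52.3 CPM in A and at 27.9, 33.4, 18.1 and 26.7 CPM in B. All A libraries exceeded all B libraries, with a log2 fold change of 1.08 ± 0.14 (SE), and edgeR's Benjamini-Hochberg adjusted p of 0.067 missed the threshold, while DESeq2 gave an adjusted p of 1.11e-09. Its name comes only from tables of these libraries. The 1 higher gene among the 181 was AABR07040629.1, at 1.32 to 2.91 CPM in A and 0.983 to 1.70 CPM in B (0.73 ± 0.31, SE), with overlap. It had 1.33 with batch as a covariate, 1.34 in the saline-injected and 0.12 in the nicotine-injected rats. Of other genes named only through tables of these libraries, the GABA-A receptor subunit gene Gabra3 (0.29 ± 0.11, SE) and Rlim, a ubiquitin ligase known from X inactivation (1.20 ± 0.39, SE), were higher with overlapping libraries, and both missed the unadjusted threshold with batch as a covariate. Over all 245 X-linked genes with any name 23 were lower and 6 higher, but the names of 64 of them come from gene lists chosen on these libraries, so that count is no independent evidence.

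The X-linked genes were also compared in the NAc core and the VTA, without a test of the set between regions. By the labels the regions come from the same rats, so the values are repeated measurements of the same crosses, except for the library labelled VTA A2, which had no Y-linked counts. Of the 13 X-linked genes lower in A in the NAc shell, 12 were below 0 in the NAc core, 11 of them at p under 0.05, with a median log2 fold change of -0.30 there. In the NAc core 4.64% of all genes were lower and 4.71% higher in A, and of the 181 X-linked genes 25 were lower and 5 higher. In the VTA, where 1.98% were lower and 3.72% higher, 6 of the 13 were below 0, 0 were lower at an unadjusted p under 0.05 in edgeR's test, and Phf8 was higher (0.18 ± 0.07, SE). Of the 181 X-linked genes 5 were lower and 11 higher there, beside 113 lower and 295 higher of the 5769 autosomal genes. Without the library labelled VTA A2, 8 of the 13 were below 0 and 3 passed as lower, and of the 181 genes 7 were lower and 9 higher (autosomal 159 and 366). Without A1 and A2, 11 of the 13 were below 0 and 3 passed, and of the 181 genes 5 were lower and 10 higher (autosomal 78 and 248). Uxt, which is not among the 13 because its name comes from tables of these libraries, was lower in A in all 3 regions, with -0.32 in the NAc core and -0.39 in the VTA (-0.34 without A2).

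Rps6ka6 was the X-linked gene that passed the adjusted threshold in the NAc core, where A held 8.93 ± 1.81 CPM and B 20.9 ± 3.30 CPM (SD, n = 4 each) and the log2 fold change was -1.23 ± 0.16 (SE, edgeR's quasi-likelihood test, Benjamini-Hochberg adjusted p = 0.0395). In the VTA it was -0.31 ± 0.28 with all libraries (SE), which missed the unadjusted threshold. The library labelled VTA A2 held 14.9 CPM, above all B libraries (9.46 to 12.1 CPM), and the other A libraries held 6.30 to 7.23 CPM. Without it the VTA value was -0.69, and it passed the unadjusted threshold. Wnk3 was lower in A in the NAc core as well (-1.83 ± 0.31, SE), with A at 0.705 to 1.74 CPM and B at 3.23 to 3.88 CPM. In the VTA its libraries overlapped (1.11 to 3.79 CPM in A, 2.75 to 4.46 CPM in B; log2 fold change -0.39 ± 0.38, SE, and -0.53 without A2).

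The difference between regions was tested as the term of cross by region. No gene had a Benjamini-Hochberg adjusted p under 0.05 in edgeR's test against either region. At p under 0.05 there were 357 genes (2.19%) against the NAc core and 951 (5.84%) against the VTA. Among them, Wnk3 departed from its VTA difference by -1.65 in log2, Kdm6a by -0.58 and Phf8 by -0.30, and without the library labelled VTA A2 these were -1.50, -0.33 and -0.32, still at the unadjusted threshold. The VTA value of Kdm6a itself was 0.27 with that library and 0.02 without it. Srpx held 2.93 ± 0.643 CPM in A and 2.77 ± 0.802 CPM in B in the NAc core (SD, n = 4 each), so that its effect in the NAc shell was further from 0, with a difference of -1.10 in log2. The Benjamini-Hochberg adjusted p of each of these was 0.776 or more in edgeR's test, with or without that library, so the regions are not shown to differ for any of them.

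**Figure D3:**
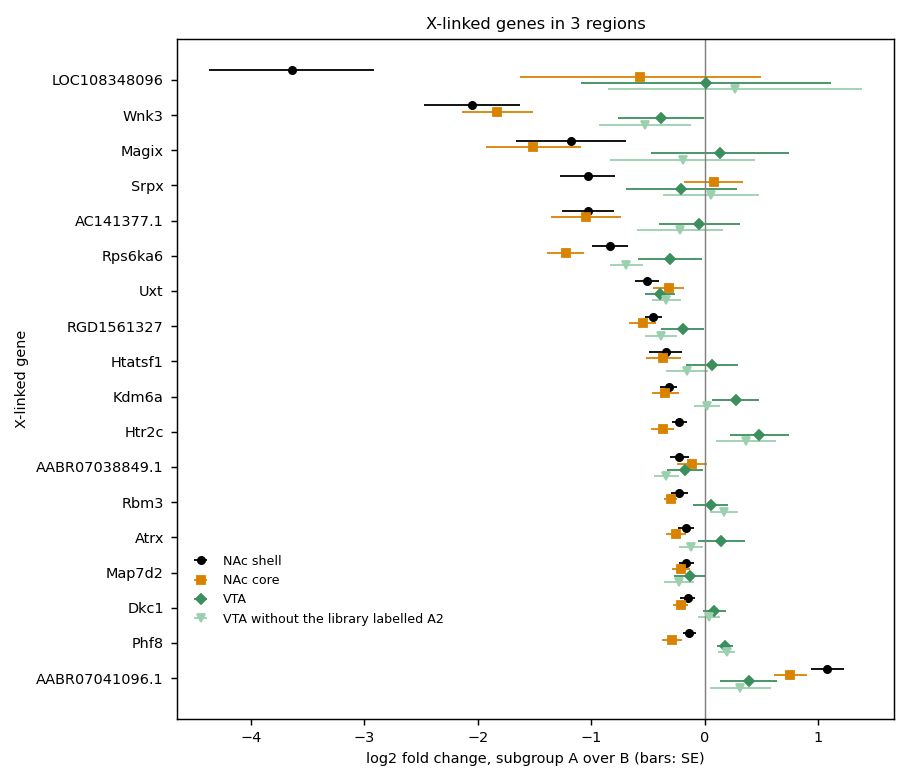
Log2 fold change of A over B (horizontal axis; bars are SE) for 18 X-linked genes, the 13 counted as lower and 5 others without overlap, in the NAc shell, the NAc core, the VTA and the VTA without the library labelled A2. Values in the NAc core follow those of the NAc shell for all but LOC108348096 and Srpx among the genes with the larger differences, and most VTA values lie nearer 0.

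Within the NAc shell the injection groups shared the direction of the 13 X-linked genes chosen on all 8 libraries. Of the 25 X-linked genes chosen as lower on the nicotine-injected rats alone, only 11 kept that direction in the saline-injected rats. All 13 lower genes were below 0 in the saline-injected rats alone (3 at p under 0.05) and in the nicotine-injected rats alone (9 at p under 0.05), where the medians were -0.19 and -0.32. Since these genes were chosen on all 8 libraries, the agreement of direction is partly set by the choice. Rps6ka6 had -0.37 in the saline-injected and -1.28 in the nicotine-injected rats, and Wnk3 -1.42 and -2.55. Uxt went the other way in size, with -0.64 and -0.39, and AABR07041096.1 had 1.34 and 0.87. Chosen instead on the nicotine-injected rats alone, where 5.65% of all genes were lower in A, 25 X-linked genes were lower, and 11 of these (44%) were below 0 in the saline-injected rats, where their median was 0.02. Of 5 X-linked genes higher in A in the nicotine-injected rats, 4 (80%) were above 0 in the saline-injected rats. The autosomal genes chosen in that way kept their direction in 131 of 333 lower (39.3%) and 154 of 369 higher (41.7%) cases. In the nicotine-injected rats cross and preparation batch cannot be told apart, and the difference between injection groups was not tested for single genes.

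**Figure D4:**
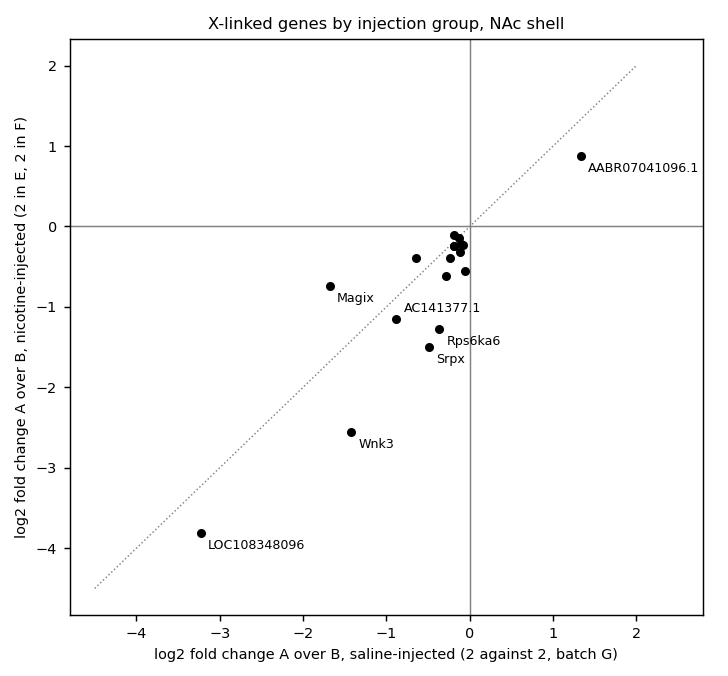
Log2 fold change of A over B in the NAc shell for the same 18 X-linked genes, in saline-injected rats (horizontal axis, 2 against 2 libraries of batch G) against nicotine-injected rats (vertical axis, 2 of batch E against 2 of batch F). The dotted line marks equal values, all points lie in the quadrants of equal sign, and Rps6ka6 and Wnk3 lie below the line.

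The Y chromosome and the mitochondrial genome, which also differ between the crosses by strain, were covered thinly. Of 4 Y-linked genes tested, all named through tables of these libraries, 1 reached p under 0.05, beside 4.00% of all tested genes. This was the gene listed as Ddx3, an RNA helicase, which lay between 43.3 and 58.6 CPM in A, where the Y is of F344 origin, and between 57.0 and 68.8 CPM in B (log2 fold change -0.24 ± 0.10, SE). The libraries overlapped, and with batch as a covariate the value was -0.12 and missed the unadjusted threshold. The demethylase gene Kdm5d (-0.13), the translation factor gene Eif2s3y (-0.09) and AC241873.1 (-0.06) had smaller differences, and all 8 NAc shell libraries held each of them. In the NAc core, where 4.64% of all genes were lower, Ddx3 had -0.51, AC241873.1 -0.49 and Kdm5d -0.33. Each of these passed the unadjusted threshold there but not the adjusted one, and Eif2s3y (-0.14) missed both. Over the other regions the library labelled VTA A2 alone held 0 counts of all 4. No gene of the mitochondrial genome had a name in the tables used, so none was examined.

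Most of the genes not known to be X-linked and without overlap that are named here differed by less than 1 in log2. Ccdc177 lay between 1.49 and 2.53 CPM in A and between 0.597 and 0.835 CPM in B (log2 fold change 1.40 ± 0.31, SE). Its NAc core libraries overlapped (0.25 ± 0.39, SE), and the difference between the regions passed the unadjusted threshold only. Rusc2 was expressed at 77.7, 68.1, 77.6 and 79.3 CPM in A and at 53.9, 59.4, 63.5 and 64.5 CPM in B, without overlap, a log2 fold change of 0.33 ± 0.08 (SE) that was 0.31 in the NAc core. The transcription factor genes Foxp4 (0.26 ± 0.07, SE) and Nfic (0.67 ± 0.18, SE), the potassium channel modifier subunit gene Kcng1 (0.44 ± 0.12, SE) and Tmem198 (0.32 ± 0.09, SE) were higher in A without overlap. So were LOC103689949 (0.64), AC108572.2 (2.55, below 1 CPM in all libraries) and a pair without a symbol or chromosome, ENSRNOG00000043225 (0.29) and ENSRNOG00000027722 (0.35). With batch as a covariate Kcng1 had 0.20, Tmem198 0.21, ENSRNOG00000043225 0.17 and ENSRNOG00000027722 0.22, and of the genes named as higher here Ccdc177, Rusc2 and AC108572.2 stayed at the unadjusted threshold.

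On the lower side the autosomal genes were Hfm1, Sytl2, Prkcb and AC130741.1. Prkcb encodes protein kinase C beta, and it was expressed at 65.2, 62.2, 60.2 and 58.1 CPM in A and at 75.6, 78.0, 76.2 and 66.4 CPM in B. The nearest libraries differed by little, and the log2 fold change was -0.27 ± 0.07 (SE). In the NAc core it was 0.15 ± 0.08 (SE), and the difference between the regions was among the 357 at the unadjusted threshold and did not pass adjustment. Sytl2, a synaptotagmin-like effector of vesicle traffic, lay between 125 and 134 CPM in A and between 141 and 157 CPM in B (-0.22 ± 0.06, SE). Hfm1, a meiotic helicase gene, had -0.57 ± 0.14 (SE) and was at -0.61 in the NAc core, where A and B did not overlap either (9.88 to 11.9 and 14.1 to 17.3 CPM). In the NAc shell it had -0.27 with batch as a covariate and -0.26 in the saline-injected rats alone, and missed the unadjusted threshold in both. AC130741.1 rested on wide values, from 0 to 3.08 CPM in A and from 7.57 to 75.0 CPM in B, and DESeq2 gave it no p. In the NAc core it went the other way, with a log2 fold change of 1.61 ± 0.87 (SE). Its difference between the regions was -5.28 in log2 and passed the unadjusted threshold only.

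Imprinted genes, for which the crosses exchange the strain of the active allele, showed no common direction. Of 13 counted genes with an active paternal allele, 1 was higher and 2 lower at p under 0.05 (23.1%, against 4.00% of all tested genes), with a median log2 fold change of 0.02, and of 10 with an active maternal allele none was, with a median of -0.02. Over all tested genes the median was 0.00. Igf2, the insulin-like growth factor, was expressed at 360, 360, 408 and 286 CPM in A and at 366, 239, 232 and 281 CPM in B. Rat 3 of B lay above 3 of the 4 A libraries, so the ranges overlapped, and the log2 fold change was 0.34 ± 0.14 (SE). Plagl1, a zinc finger transcription factor gene, lay at 1.30, 2.64, 3.53 and 3.12 CPM in A and 3.68, 4.99, 4.86 and 3.83 CPM in B without overlap (-0.71 ± 0.28, SE). It had -1.16 in the NAc core and 0.62 in the VTA (0.52 without A2), and the difference from the VTA passed the unadjusted threshold with and without the library labelled VTA A2. Inpp5f, a phosphoinositide phosphatase gene, had -0.21 ± 0.07 (SE). With batch as a covariate Igf2 had 0.44, Plagl1 -0.39 and Inpp5f -0.12, and all 3 missed the unadjusted threshold, which Igf2 passed in the saline-injected rats alone (0.45). Ndn, Magel2, Usp29, Nnat and Rasgrf1 lay between 0.01 and 0.09, and Ube3a, the maternally expressed ubiquitin ligase gene, was at -0.06.

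Few of the receptors through which nicotine and striatal transmitters act separated the crosses. Chrnb2, the beta2 subunit of the high-affinity nicotinic receptor, was expressed at 14.3, 17.2, 19 and 20.6 CPM in A and at 13.7, 13.8, 13.8 and 14.1 CPM in B. The A libraries lay above the B libraries, though rat 1 lay close to them, and the log2 fold change was 0.36 ± 0.12 (SE) and 0.53 in the NAc core. The name of Chrnb2 comes from tables of these libraries. Of the 8 measured genes of dopamine receptors and signalling 0 reached p under 0.05 in edgeR's test, the range being -0.20 to 0.10. Drd1 was at 95.1 ± 18 CPM in A and 101 ± 17.0 CPM in B, and Drd2 at 145 ± 35.1 and 144 ± 25.7 CPM (SD, n = 4 each). Of 9 counted glutamate receptor genes 1 was higher and 1 lower (22.2%, against 4.00% of all tested genes): Gria1 (0.17 ± 0.07, SE) and Gria2 (-0.29 ± 0.09, SE), which encode AMPA receptor subunits. The kainate receptor gene Grik2, named through tables of these libraries, had -0.24 ± 0.10 (SE). With batch as a covariate Chrnb2 had 0.50 and stayed at the unadjusted threshold, whereas Gria1 (0.15), Gria2 (-0.21) and Grik2 (-0.02) missed it. Of 6 counted GABA-A receptor genes (median -0.09), 6 genes of the opioid and endocannabinoid system (median 0.03) and 2 nicotinic receptor genes, 0 reached an unadjusted p under 0.05 in edgeR's test. Names were found for 4 of 16 nicotinic, 8 of 14 dopamine and 12 of 22 glutamate receptor symbols, so these counts leave many receptors unexamined.

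**Figure D5:**
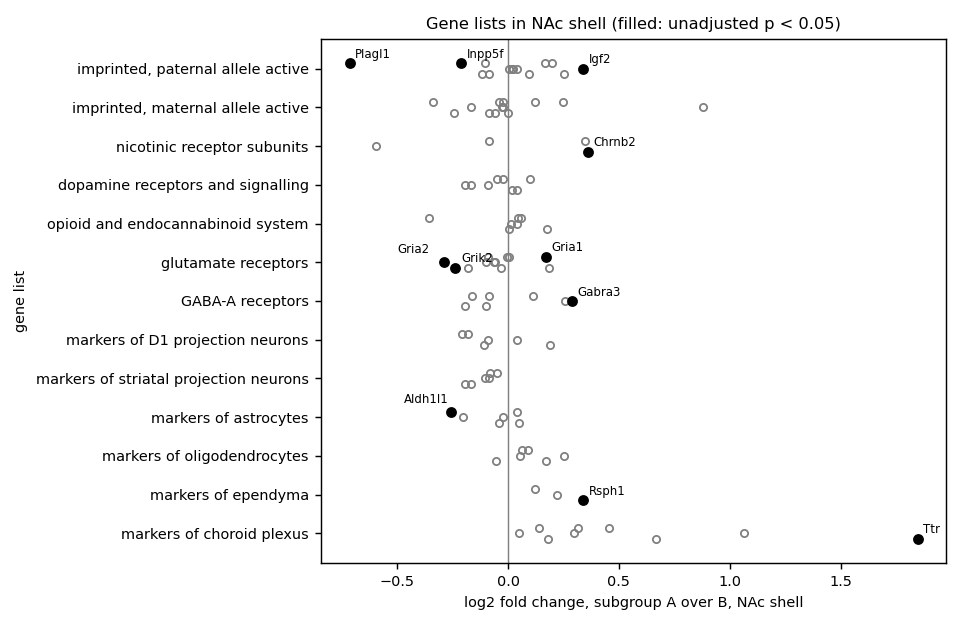
Log2 fold change of A over B in the NAc shell (horizontal axis) for the measured genes of 13 lists (rows), filled and named where the unadjusted p was under 0.05. Most points lie between -0.2 and 0.2, and choroid plexus and ependyma markers lie above 0.

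Markers of the cell types a dissection of this region can hold were compared as well. The 6 markers of striatal projection neurons were all below 0, from -0.20 to -0.05, and 0 of them reached p under 0.05. Their summed level overlapped between A (1437 to 2197 CPM) and B (1693 to 2474 CPM). The 6 D1 neuron markers had a median of -0.10 and the 6 oligodendrocyte markers 0.08. Markers of cholinergic interneurons (4 counted, median -0.13), microglia (4 counted, -0.01) and endothelium and pericytes (4 counted, -0.05) gave 0 at an unadjusted p under 0.05 in edgeR's test, as did those of septum and ventral pallidum, which were above 0 in 4 of 4 (median 0.26). Of the astrocyte markers Aldh1l1, named through tables of these libraries, was lower in A (-0.26 ± 0.10, SE), and the 3 counted ones had a median of -0.02. Of the dopamine neuron markers Slc6a3 was lower in A without overlap (0.139 to 0.293 against 0.491 to 0.824 CPM, named through tables of these libraries), whereas Slc18a2 (0.87 ± 0.49, SE), Pitx3 (1.84 ± 1.19, SE) and Ddc (-0.24 ± 0.12, SE) overlapped. Slc6a3 (-1.16) and Aldh1l1 (-0.10) missed the unadjusted threshold with batch as a covariate. In a bulk sample, fewer cells of a type and less RNA per cell cannot be told apart.

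Choroid plexus and ependyma markers, which come from the lining of the ventricles, had mostly higher values in A. All 9 measured choroid plexus markers were above 0, with summed levels of 11.0 to 13.9 CPM in A and 6.68 to 11.3 CPM in B. Ttr, the transthyretin gene that dominates that tissue, was at 2.46, 2.25, 0.859 and 0.819 CPM in A and at 0.919, 0.360, 0.0491 and 0.414 CPM in B (log2 fold change 1.85 ± 0.62, SE). The ranges overlapped at these low levels. The 3 ependyma markers were above 0 too, with Rsph1, a gene of motile cilia, at 0.34 ± 0.14 (SE), and summed to 22.5 to 25.8 CPM in A and 14 to 24.6 CPM in B. With batch as a covariate Ttr had 1.85 and stayed at the unadjusted threshold, and Rsph1 had 0.44 and missed it. Their part in the differences of the X-linked genes or of Igf2 was not tested.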

How the data were processed

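Total RNA from NAc shell, NAc core and VTA was sequenced as paired reads. The authors trimmed reads with fastp 0.20.0 and quantified them with Salmon 0.12.0 against Rnor 6, and tximport gave the deposited estimated counts per gene, already whole numbers and not normalized. Groups came from the sample labels, and replicates are named by rat number; 0 columns were left without a sample. Members, lists and tests were chosen with earlier results of these data known.

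Tested were the 16289 of 17323 genes that exceeded 10 counts, after scaling by median-ratio size factors, in 3 or more of the 24 libraries. The main test was edgeR 4.0.16 (R 4.3.3), quasi-likelihood, TMM, cross as the only term, with Benjamini-Hochberg adjustment, two-sided; SE is the fold change over the root of F. DESeq2 1.42.0 was an alternative. Bounds against 0 use 3 counts per library and cover counting error only. Named were genes with an adjusted p under 0.05 and the 12 higher and 12 lower of smallest p without overlap, plus list members at p under 0.05; other X-linked genes were named after their values were seen.

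The reference gene table held 0 of the Ensembl IDs, so symbols and chromosomes came from the identity columns of the study's supplementary gene tables, which also hold the authors' own comparisons (not used). They name 7458 tested genes (45.8%), 5950 of them through the sensitization experiment; 6555 of 6582 symbols found in RefSeq GRCr8 lay on the same chromosome. Counts over lists and chromosomes use those 5950 genes. List tests on genes without names were not made. Fits were tested on simulated counts. By the labels rats pair the regions, 1 rat giving all 3 libraries (the library labelled VTA A2 held no Y-linked counts); deviations of the same rat correlated at -0.11 to 0.12 between shell and core and -0.07 to 0.13 between shell and VTA. Replicate libraries differed by 7.08 to 17.1 times the chi-square degrees of freedom, so none was a copy. Alternatives are listed in the closing section.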

Additional observations from a re-analysis of the deposited data

Results flagged for a closer look

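Of 68 groups of 4 NAc shell libraries (34 genes in each subgroup), 4 held a library apart from the other 3 by Dixon's ratio, where chance gives about 1 in 20, or 3.4. Rusc2 was at 68.1 CPM in A replicate 2, below the 77.6 to 79.3 CPM of the other A libraries. RGD1561327 was at 84.6 CPM in A replicate 11, above 74.1 to 74.6 CPM in the others. AC130741.1 was at 75.0 CPM in B replicate 13, above 7.57 to 11.2 CPM. Magix was at 1.29 CPM in B replicate 16, above 0.919 to 0.934 CPM. The first 2 of these lay toward the other subgroup and the last 2 away from it.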

How the results depend on the processing

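The 1 gene with an adjusted p under 0.05 (edgeR) became 5 with DESeq2, 4 in saline-injected and 120 in nicotine-injected rats alone, and 0 with the injection as a covariate or with all 24 libraries in 1 fit (the library labelled VTA A2 included), and it was 0 to 3 with 1 library left out (0 when any 1 A library or B replicate 16 was left out; 3 without B replicates 3 or 13). With preparation batch as a covariate the 1 gene was LOC100910143, and the 4 of saline-injected rats alone held it, with LOC100911186 and LOC108348062; these were named after their values were seen. Genes at an unadjusted p under 0.05 numbered 652, against 363 in the fit of all 24 libraries, 1944 in nicotine-injected and 409 in saline-injected rats alone, and 431 (without A replicate 2) to 1112 (without B replicate 13) with 1 library left out; 42.3% of them were higher in A, 54.3% with all 24 libraries and 37.9% to 53.8% without 1 library. For the difference between regions, the rat as a replicate block gave 339 genes against NAc core and 866 against VTA in place of 357 and 951, with 0 adjusted in edgeR's test either way, while DESeq2 called 2 and 5 (among them Gng5 and Ttr; 352 and 1015 unadjusted). Without 1 rat these were 346 to 543 (without rat 15) and 532 to 1345 (532 without rat 3, 624 without rat 4), and without the library labelled VTA A2 the second was 1036, and 836 without A1 as well (both chosen after seeing the data). In edgeR's fit the shell minus VTA difference of Ttr moved from -9.59 in log2 with all VTA libraries to 1.29 without A1 and A2. For the 34 genes followed, 0 of 576 values changed sign, which their choice on the same libraries largely set in advance. The unadjusted threshold was missed by 18 with preparation batch as a covariate and by 22 in saline-injected rats alone. The adjusted threshold was crossed in 9 values for LOC100362965 (adjusted p up to 0.311 in edgeR's test) and in 11 for 6 other genes. The crosses share no rat number, so no block applies to the comparison of A and B. The cause of these changes was not tested. With 4 libraries per subgroup, changes of 1.5-fold were often below detection.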
